A study of Mus musculus with 4 samples.

Results

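Haemoglobin-dominated red cell barcodes are droplets in which the 4 adult globin genes, Hba-a1, Hba-a2, Hbb-bs and Hbb-bt, made up at least 50% of all UMIs (unique molecular identifiers, counting captured RNA molecules). They were chosen by that share alone, on raw UMIs and with no filter on gene number, and numbered 358 of 16157 barcodes (2.22%) in 4 libraries. The globin share of these barcodes is therefore a description and was not tested, and nothing below is a test of them against the rest. The study profiled leukocytes of peripheral blood from C57BL/6J mice, 10 weeks old, in a model of acute lymphoblastic leukaemia, by droplet sequencing of RNA 5′ ends. Every mouse was treated with dasatinib, a tyrosine kinase inhibitor, and was bled 1 week after treatment began, when all were in remission. Treatment went on for 4 more weeks, and at day 100 of the experiment 6 mice had relapsed and 6 were cured. Cells were frozen, thawed and sorted for live cells, and those of 3 mice were pooled per library, which gave 2 Relapsed and 2 Cured libraries. A pool is the replicate, its mice cannot be told apart in the files used here, and the labels name no untreated mice. The question of the study was which features of the blood set apart mice that later relapsed.

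Red cells carry oxygen on haemoglobin, a tetramer of alpha and beta globin chains that each hold a haem group. The youngest red cells in blood, the reticulocytes, have lost their nucleus and keep a shrinking stock of RNA, mostly globin messenger RNA, together with RNA for haem synthesis, iron handling, the membrane skeleton and the removal of organelles. Mature red cells hold little RNA. Alas2, the erythroid form of the enzyme that starts haem synthesis, marks the red cell line and was not part of the rule. An Alas2 UMI was found in 266 of 281 red cell barcodes of Relapsed library 1, 23 of 23 of Relapsed library 2, 27 of 29 of Cured library 1 and 25 of 25 of Cured library 2. In percent these were 94.7 (exact binomial 95% interval 91.3 to 97.0) and 100 (85.2 to 100) in the Relapsed libraries, against 93.1 (77.2 to 99.2) and 100 (86.3 to 100) in the Cured libraries. Among all other barcodes 0.657% and 0.0688% in the Relapsed libraries and 0.0522% and 0.0235% in the Cured libraries held an Alas2 UMI, although those barcodes were deeper, with medians of 1787, 2037, 2234.5 and 2334 UMIs in the same order against 1150, 1470, 1289 and 1526 UMIs in the red cell barcodes. The data thus bear out the red cell label by a gene the rule did not use, and 94.8% of all Alas2 UMIs lay in red cell barcodes.

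The upstream sequences of the globin genes that define these barcodes are shown because their RNA makes up most of what the droplets hold. That of Alas2, the marker outside the rule, is shown beside them. Each run gives the 250 bases before the start site in the RefSeq promoter table (GRCm38.p6), 5′ to 3′ along the gene's strand, with matches to 4 short motifs in capitals. Hba-a1 lies on the plus strand (chr11:32283422-32283671), Hbb-bs on the minus strand (chr7:103827929-103828178), Hbb-bt on the minus strand (chr7:103813924-103814173) and Alas2 on the plus strand (chrX:150547167-150547416).
Hba-a1: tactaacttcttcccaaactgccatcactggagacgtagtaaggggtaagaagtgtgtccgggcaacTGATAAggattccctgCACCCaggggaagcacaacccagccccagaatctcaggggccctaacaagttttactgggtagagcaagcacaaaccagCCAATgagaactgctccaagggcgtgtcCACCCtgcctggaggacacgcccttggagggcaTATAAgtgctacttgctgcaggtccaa
Hbb-bs: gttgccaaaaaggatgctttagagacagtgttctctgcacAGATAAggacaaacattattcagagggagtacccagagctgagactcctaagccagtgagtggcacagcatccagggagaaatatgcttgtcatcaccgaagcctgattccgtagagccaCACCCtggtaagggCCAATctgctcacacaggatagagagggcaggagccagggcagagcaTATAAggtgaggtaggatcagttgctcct
Hbb-bt: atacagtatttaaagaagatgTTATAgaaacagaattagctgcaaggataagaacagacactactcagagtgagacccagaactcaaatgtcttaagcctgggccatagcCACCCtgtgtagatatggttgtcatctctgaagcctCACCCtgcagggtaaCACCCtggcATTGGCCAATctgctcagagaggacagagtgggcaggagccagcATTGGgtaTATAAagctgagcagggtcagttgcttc
Alas2: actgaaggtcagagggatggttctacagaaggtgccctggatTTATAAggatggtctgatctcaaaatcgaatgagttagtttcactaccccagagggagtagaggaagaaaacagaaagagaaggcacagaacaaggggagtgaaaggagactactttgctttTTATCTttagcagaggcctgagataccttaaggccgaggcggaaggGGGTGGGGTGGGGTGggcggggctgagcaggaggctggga

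The motifs were a GATA site, a CACC box, a CCAAT box and a TATA box, each searched on both strands, and they were chosen because they are known from globin promoters. The GATA site was searched as AGATAA and, with another last letter, as AGATAG. Both words were also searched with T as their opening letter. The CACC box was searched as CACCC, and the CCAAT box by the letters of its name. For the TATA box the letters TATAA were searched. Matches on opposite strands can share letters, and the 3 CACC matches of Alas2 run into each other. A GATA site stood in the windows of Hba-a1, Hba-a2, Hbb-bs and Alas2 and in 26.5% of 32851 promoters of the table. A CACC box and a TATA box stood in all 5 windows, and in 52.0% and 22.8% of the promoters. A CCAAT box stood in the 4 globin windows and in 33.8% of the promoters. The nearest TATA match lay 27 to 30 bases before the start in the 4 globin genes, and 207 bases before it in Alas2. The Hba-a2 window is not printed because it holds the Hba-a1 sequence over 297 of 300 bases, shifted along the gene. A match is a run of letters and says nothing of whether a protein binds there.

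The 2 alpha genes and the 2 beta genes are also close copies in their coding sequence, which bears on how well their counts can be told apart. In the GENCODE M21 transcripts Hba-a1 (ENSMUSG00000069919, chr11:32283511-32284465, plus strand) and Hba-a2 (ENSMUSG00000069917, chr11:32296489-32297298, plus strand) were identical at 425 of 426 coding bases and differed by C381T, Hba-a1 first. Hbb-bs (ENSMUSG00000052305, chr7:103826534-103828096, minus strand) and Hbb-bt (ENSMUSG00000073940, chr7:103812524-103813996, minus strand) were identical at 440 of 441 coding bases and differed by C417T, Hbb-bs first. Positions count from 1 at the first base of the start codon, the stop codon is left out, and the differing base is in capitals.
Hba-a1, coding bases 351 to 411: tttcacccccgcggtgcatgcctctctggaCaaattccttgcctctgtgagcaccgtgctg
Hba-a2, coding bases 351 to 411: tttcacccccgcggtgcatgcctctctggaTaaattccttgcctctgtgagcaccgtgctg
Hbb-bs, coding bases 387 to 441: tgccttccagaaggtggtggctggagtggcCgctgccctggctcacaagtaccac
Hbb-bt, coding bases 387 to 441: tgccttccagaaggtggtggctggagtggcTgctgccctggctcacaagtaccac

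The libraries held 3631 and 4383 barcodes (Relapsed) and 3859 and 4284 barcodes (Cured), with 7184045 and 9859508 UMIs (Relapsed) and 9257402 and 10840397 UMIs (Cured), and every barcode had at least 500 UMIs. Relapsed library 1 had the fewest barcodes and UMIs of the 4. Between any pair of libraries 20 to 29 barcode sequences were shared, and no red cell barcode of one library was a red cell barcode of another. The leukocyte label was borne out in the other barcodes, where the 8 B cell markers summed to 203 and 272 UMIs per 10000 non-globin UMIs in the Relapsed libraries and 254 and 271 in the Cured libraries.

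Red cell barcodes were far more numerous in Relapsed library 1 than in the other 3 libraries. There were 281 in Relapsed library 1 and 23 in Relapsed library 2, against 29 in Cured library 1 and 25 in Cured library 2. They made up 7.74% of barcodes (exact binomial 95% interval 6.89 to 8.66) and 0.525% (0.333 to 0.786) in the Relapsed libraries, against 0.751% (0.504 to 1.08) and 0.584% (0.378 to 0.860) in the Cured libraries. These intervals, as all intervals here, cover counting error only. Relapsed library 1 held 78.5% of all 358 red cell barcodes, and its share was 13.3 times the median share of the other libraries. Relapsed library 2 had the lowest share of all, so the groups overlapped.

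The share averaged 4.13 ± 5.10% in Relapsed libraries and 0.668 ± 0.119% in Cured libraries (SD, n = 2 each), a difference of 3.46 percentage points. An exact permutation test gave a two-sided p of 1, where 0.333 is the smallest value that 2 against 2 libraries allow. Without Relapsed library 1 the difference was -0.143 percentage points. The cells were sorted live leukocytes, and how many red cells each pool kept through preparation and sorting was not tested. In Relapsed library 1 the neutrophil markers of the other barcodes were also at their highest, with 133 UMIs per 10000 non-globin UMIs, against 56.6 in Relapsed library 2 and 63.3 and 59.2 in the Cured libraries; the part of this in the red cell count was not tested.

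**Figure D1:**
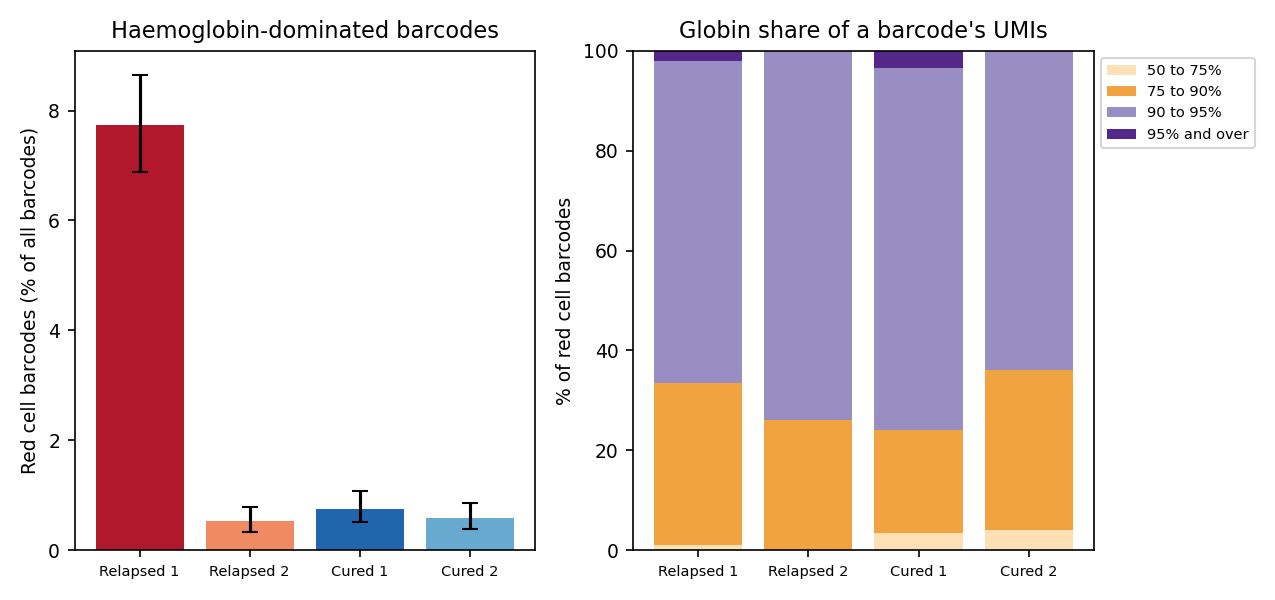
Left, red cell barcodes as a percentage of all barcodes in each library, with exact binomial 95% intervals; right, the red cell barcodes of each library divided by the globin share of their UMIs. Relapsed 1 stands at 7.74% and the other libraries between 0.525% and 0.751%, while 90 to 95% globin is the most common class in all 4.

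Within the red cell barcodes the globin share was high and narrow. Of the 358 barcodes, 5 had 50 to 75% globin UMIs, 111 had 75 to 90%, 235 had 90 to 95% and 7 had 95% or more. The median share was 91.0% and 91.8% in the Relapsed libraries, against 92.4% and 90.8% in the Cured libraries. Just inside the threshold lay barcodes with 53.2, 55.5, 60.3, 65.8 and 70.8%, and just outside it barcodes with 49.2, 44.0, 43.9, 42.1 and 41.5%. Few barcodes lay near the threshold, and 24 in all had 5 to 50% globin UMIs, 20 and 2 in the Relapsed libraries and 1 in each Cured library. Each of those 24 also held UMIs of at least 2 markers of 1 leukocyte type, and in Relapsed library 1 their median was 3121 UMIs, against 1150 UMIs in its red cell barcodes.

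Red cell barcodes were shallow and held few kinds of RNA besides globin. The lowest, median and highest UMI counts were 502, 1150 and 11245 in Relapsed library 1 and 504, 1470 and 2169 in Relapsed library 2, against 528, 1289 and 2393 in Cured library 1 and 649, 1526 and 2410 in Cured library 2. All 16 red cell barcodes above 2500 UMIs were in Relapsed library 1, which also held most red cell barcodes. With the 4 globins removed, a median of 104 and 128 UMIs was left in the Relapsed libraries, against 82 and 137 UMIs in the Cured libraries. These came from a median of 62 and 76 genes in the Relapsed libraries, against 55 and 77 genes in the Cured libraries. The groups overlapped in both measures. Non-globin UMIs averaged 116 ± 17.0 in Relapsed libraries and 109.5 ± 38.9 in Cured libraries (SD, n = 2 each; exact permutation test, two-sided p = 1), and non-globin genes averaged 69.0 ± 9.90 and 66.0 ± 15.6 in the same order (exact permutation test, n = 2 each, p = 1). A cutoff of 200 genes, often used to remove empty droplets, would have dropped 353 of the 358 red cell barcodes, and 356 barcodes of any kind fell under it.

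**Figure D2:**
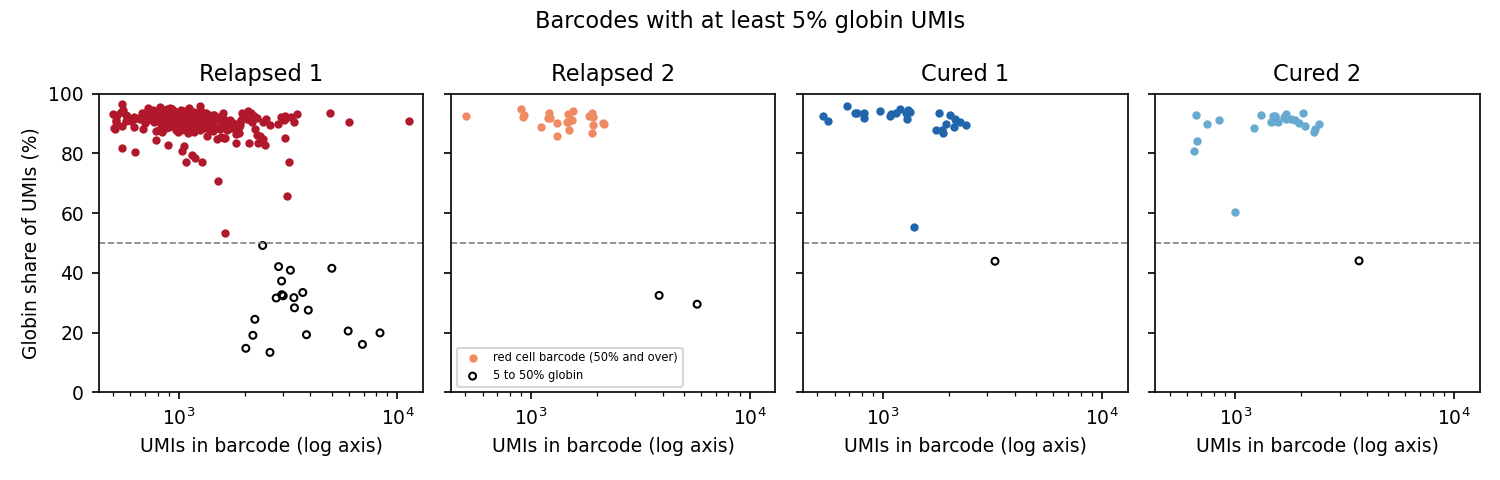
Globin share of UMIs (%) against UMIs per barcode (log axis) for each barcode with at least 5% globin UMIs, 1 panel per library; filled points are red cell barcodes, open points barcodes with 5 to 50% globin, and the dashed line is the 50% threshold. Red cell barcodes gather near 90% globin at about 1150 to 1526 UMIs in median, and the open points, 20 of them in Relapsed 1, lie mostly at higher UMI counts.

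Beta globin RNA outweighed alpha in every library, and Hbb-bs was the largest single component. Hbb-bs had a median of 688 and 887 UMIs per red cell barcode in the Relapsed libraries, against 773 and 910 in the Cured libraries. Hba-a1 had a median of 126 and 139 UMIs in the Relapsed libraries, against 159 and 196 in the Cured libraries. Hba-a2 had 113 and 129 UMIs in the Relapsed libraries, against 149 and 156 in the Cured libraries. Hbb-bt had 130 and 141 UMIs in the Relapsed libraries, against 111 and 154 in the Cured libraries. Both alpha genes thus had lower medians in both Relapsed libraries than in either Cured library, while the beta genes overlapped.

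The alpha genes gave 22.8% (exact binomial 95% interval 22.7 to 23.0) and 21.8% (21.3 to 22.3) of the globin UMIs of red cell barcodes in the Relapsed libraries, against 25.8% (25.3 to 26.2) and 24.97% (24.5 to 25.4) in the Cured libraries. The groups did not overlap. The mean was 22.3 ± 0.743% in Relapsed libraries and 25.4 ± 0.579% in Cured libraries (SD, n = 2 each), a difference of -3.07 percentage points with an exact permutation p of 0.333, the smallest possible. Single barcodes of a library varied too, the middle 50% running from 21.0 to 24.6% and 20.6 to 23.4% alpha in the Relapsed libraries and from 24.0 to 28.2% and 23.0 to 26.7% in the Cured libraries.

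Hbb-bt, the minor beta gene, gave 16.1% (15.96 to 16.2) and 15.5% (15.04 to 15.96) of the beta UMIs in the Relapsed libraries, against 13.8% (13.4 to 14.2) and 14.2% (13.8 to 14.7) in the Cured libraries. The mean was 15.8 ± 0.430% in Relapsed libraries and 14.02 ± 0.295% in Cured libraries (SD, n = 2 each), 1.78 percentage points higher in Relapsed libraries with no overlap (exact permutation test, p = 0.333). Hba-a2 gave 47.3% and 46.5% of the alpha UMIs in the Relapsed libraries, against 45.1% and 45.2% in the Cured libraries. That difference was 1.72 percentage points, again with no overlap between the 2 libraries of each group (exact permutation test, p = 0.333). Counting intervals of Relapsed library 2 (45.3 to 47.7) and of the Cured libraries (44.1 to 46.2 in both) overlapped for Hba-a2. The coding sequences differ at 1 base in each pair, at 381 of 426 and 417 of 441, while RNA 5′ ends were sequenced. Transcript parts outside the coding sequence were not compared. The split between Hba-a1 and Hba-a2 and between Hbb-bs and Hbb-bt is therefore uncertain. How shared reads were handled could also move the alpha share, which was not tested.

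**Figure D3:**
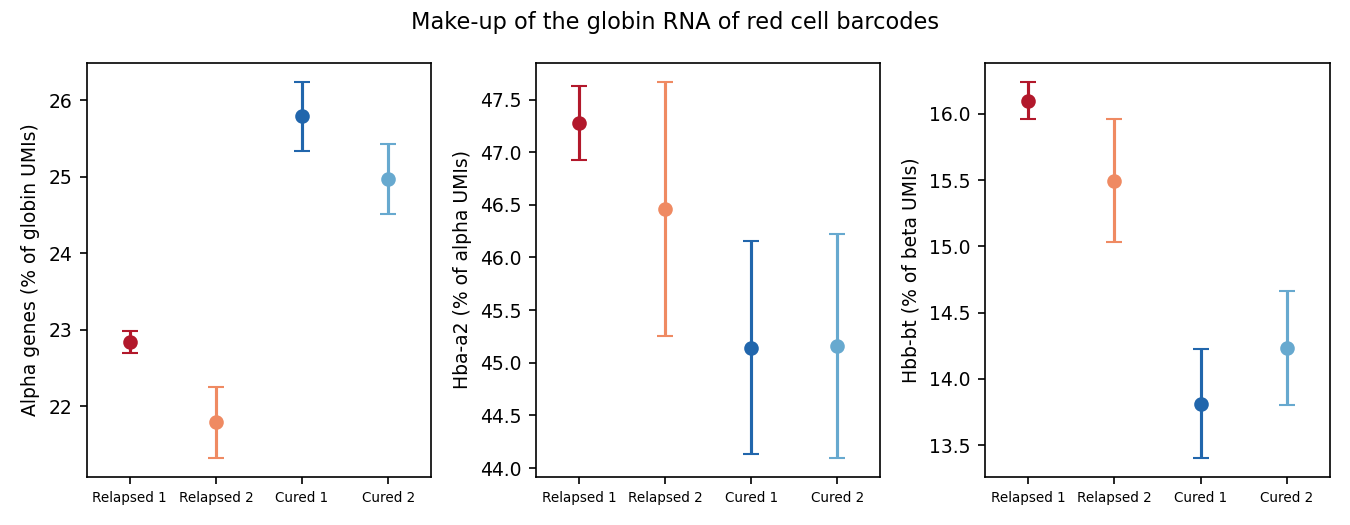
Alpha genes as a percentage of all globin UMIs, Hba-a2 as a percentage of alpha UMIs and Hbb-bt as a percentage of beta UMIs in the red cell barcodes of each library, with exact binomial 95% intervals; the vertical axes do not start at 0. The Relapsed libraries (22.8 and 21.8%) lie below the Cured libraries (25.8 and 24.97%) for alpha and above them for Hbb-bt.

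With the 4 globins removed, the red cell barcodes of the Relapsed libraries held 38732 and 3032 UMIs, against 3969 and 3903 UMIs in the Cured libraries. At least 1 UMI was seen for 4050 genes and at least 10 UMIs for 386, while 249 genes had a UMI in every library. Levels are given as UMIs per 10000 non-globin UMIs of the same barcodes, each UMI standing for 1 captured molecule, so that they were not divided by transcript length. Of the 386 genes, 168 had a mean level over 2 times that in the other barcodes, 112 of these over 10 times, and 138 had a level under 0.5 times it. Gene levels ranked alike between libraries, with Spearman correlations of 0.690 to 0.782 over the 147 genes with at least 50 UMIs; these are across genes, which are not independent, and the libraries share the abundant transcripts of the cell type.

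The most abundant feature was Gm42418 (ENSMUSG00000098178, chr17:39846958-39848788, plus strand), annotated as a lincRNA. It overlaps AY036118 (chr17:39847113-39848035, minus strand) and the annotated ribosomal RNA gene CT010467.1 (chr17:39846353-39848827, minus strand). Gm42418 had a level of 2031 and 1095 UMIs per 10000 in the red cell barcodes of the Relapsed libraries, against 683 and 1776 in the Cured libraries. In the other barcodes it had 206 and 120 in the Relapsed libraries and 109 and 112 in the Cured libraries. Gm42418, AY036118 and Lars2 together gave 22.9% (22.5 to 23.4) and 12.5% (11.4 to 13.8) of the non-globin UMIs of red cell barcodes in the Relapsed libraries, against 7.71% (6.90 to 8.58) and 20.6% (19.3 to 21.9) in the Cured libraries. Libraries of the same group differed widely here, and the groups overlapped. Ribosomal protein genes gave 13.4% and 13.8% in the Relapsed libraries and 12.8% and 12.9% in the Cured libraries, where the other barcodes had 37.7 to 39.9%. Mitochondrially encoded genes gave 1.99% and 1.75% in the Relapsed libraries and 3.40% and 1.49% in the Cured libraries. In the other barcodes they gave 2.72% and 2.34% in the Relapsed libraries and 2.14% and 2.29% in the Cured libraries. Only Cured library 1 thus lay above its other barcodes. Of the 13 genes 1 had a higher mean level than in the other barcodes, and the median ratio was 0.578. That gene was mt-Co1, with 506 of the 1016 UMIs and a ratio of 1.84.

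**Figure D4:**
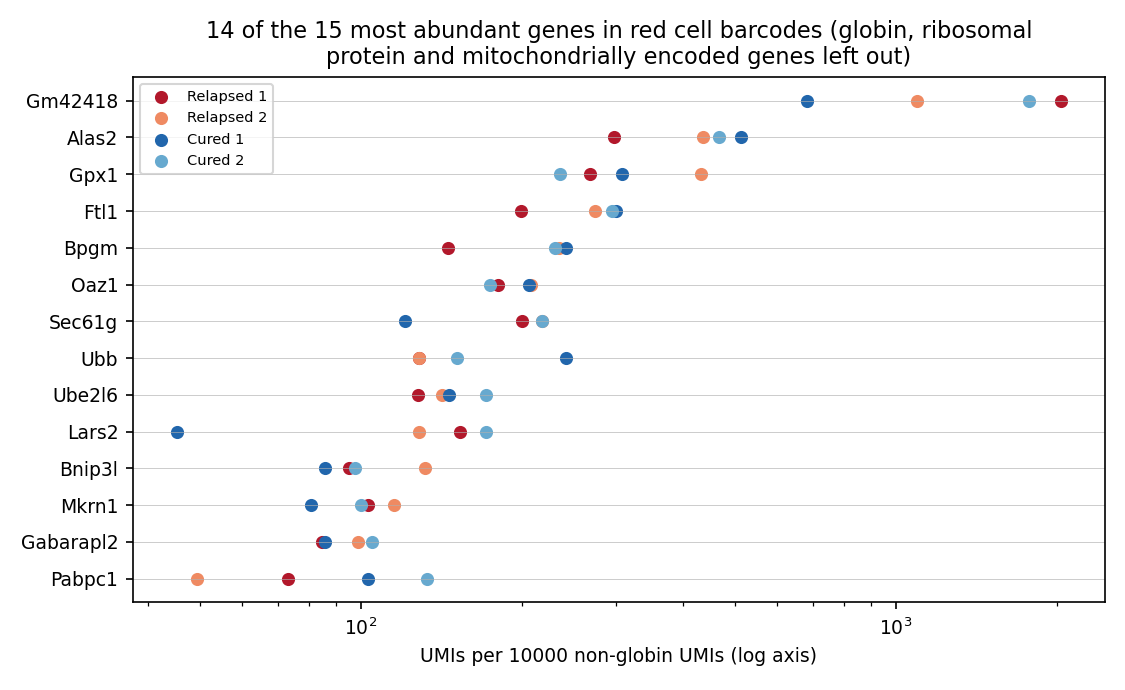
Level of 14 of the 15 most abundant genes in the red cell barcodes of each library (UMIs per 10000 non-globin UMIs, log axis), with the 4 globins, ribosomal protein and mitochondrially encoded genes left out. Gm42418 runs from 683 to 2031, Alas2 from 297 to 514, and the libraries overlap for most genes.

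Much of the remaining RNA came from genes of the red cell. The 5 lists of haem synthesis, iron, membrane, maturation and metabolism genes (89 genes in all) had UMIs for 67 genes and gave 22.5% (22.1 to 23.0) and 30.2% (28.5 to 31.8) of the non-globin UMIs in the Relapsed libraries, against 28.6% (27.17 to 30.005) and 27.7% (26.3 to 29.1) in the Cured libraries. In the other barcodes the same genes gave 1.21% and 1.36% in the Relapsed libraries and 1.39% and 1.37% in the Cured libraries. Of the 89 genes 51 had a level over 2 times that of the other barcodes, counted with no minimum of UMIs. Of the 39 with at least 10 UMIs 38 did so, against 168 of all 386 genes with at least 10 UMIs. That minimum was set in the red cell barcodes, so these counts are a description. The metabolism list had the fewest such genes for its size, 7 of 20 with no minimum, and a median ratio of 1.24 over its 16 detected genes. Relapsed library 1 had the lowest share of the 4, and the highest summed share of Gm42418, AY036118 and Lars2.

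Haem synthesis was represented by its first and last steps. Alas2 had 1152 and 132 UMIs in the red cell barcodes of the Relapsed libraries, against 204 and 182 UMIs in the Cured libraries. Its level was 297 and 435 UMIs per 10000 in the Relapsed libraries, against 514 and 466 in the Cured libraries. Both Relapsed libraries lay below both Cured libraries, an order for which no exact permutation test of 2 against 2 libraries can give p under 0.333. Genes outside this list separated too, among them Ubb and Rplp0 (lower in Relapsed libraries) and Mkrn1 and Rps9 (higher). How many of all genes did so was not counted, so this order cannot be called particular to Alas2 or to haem genes. Fech, ferrochelatase, which inserts iron into the porphyrin ring as the final step, had a level of 37.7 and 89.1 in the Relapsed libraries, against 75.6 and 79.4 in the Cured libraries. Slc25a39, a mitochondrial carrier needed for haem synthesis, had 46.5 and 75.9 in the Relapsed libraries, against 101 and 94.8 in the Cured libraries. Enzymes in between were scarce: Alad, Cpox and Ppox had 1 UMI each, Urod had 8 UMIs, and Uros had none. Of the 15 genes on the list 11 had a UMI, and the summed level was 405 and 650 in the Relapsed libraries, against 726 and 676 in the Cured libraries, with 3.44 to 3.96 in the other barcodes.

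Iron genes were led by the ferritin light chain Ftl1, part of the cage that stores iron. Ftl1 had a level of 199 and 274 UMIs per 10000 in the Relapsed libraries, against 300 and 295 in the Cured libraries, and the other barcodes averaged 20.2. The heavy chain Fth1 had 64.0 and 98.9 in the Relapsed libraries, against 60.5 and 56.4 in the Cured libraries. Slc25a37 (mitoferrin 1), which brings iron into mitochondria, had 56.3 and 29.7 in the Relapsed libraries, against 40.3 and 25.6 in the Cured libraries. Ftl1 lay lower, and Fth1 higher, in both Relapsed libraries than in either Cured library, a separation also seen in genes outside the haem and iron lists. The transferrin receptor Tfrc, the entry gate for iron in younger cells, had 3 and 1 UMIs in the Relapsed libraries and none in the Cured libraries. Of the 10 genes 7 had a UMI.

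Membrane and skeleton genes had a summed level of 257 and 300.1 UMIs per 10000 in the Relapsed libraries, against 199 and 307 in the Cured libraries, with 5.04 to 5.56 in the other barcodes. Epb41, protein 4.1 of the membrane skeleton, had 54.5 and 42.9 in the Relapsed libraries, against 32.7 and 41.0 in the Cured libraries. Mpp1, a scaffold protein of the red cell membrane, had 22 and 5 UMIs in the Relapsed libraries and 5 and 3 UMIs in the Cured libraries. Slc4a1, the anion exchanger band 3, had 52 and 1 UMIs in the Relapsed libraries and 0 and 2 UMIs in the Cured libraries, and 94.8% of its UMIs lay in red cell barcodes. Of the 24 genes 16 had a UMI, and 8 had none, among them Rhag, Kel and Aqp1.

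Genes of reticulocyte maturation, the clearing of mitochondria, ribosomes and other organelles, formed the largest of the 5 sums. The summed level was 755 and 831 UMIs per 10000 in the Relapsed libraries, against 862 and 856 in the Cured libraries, with 37.7 to 50.8 in the other barcodes. Ubb, a ubiquitin gene, had 128 and 129 in the Relapsed libraries, against 242 and 151 in the Cured libraries. Ube2l6, which passes on ubiquitin or the ubiquitin-like ISG15, had 128 and 142 in the Relapsed libraries, against 146 and 172 in the Cured libraries, and 54.7% of all Ube2l6 UMIs lay in red cell barcodes. Bnip3l, the receptor by which reticulocytes remove mitochondria, had 95.01 and 132 in the Relapsed libraries, against 85.7 and 97.4 in the Cured libraries. Mkrn1, a ubiquitin ligase, had 103 and 115 in the Relapsed libraries, against 80.6 and 99.9 in the Cured libraries, and Gabarapl2, which works in autophagy, had 84.7 and 98.9 against 85.7 and 105. Trim10, needed for terminal red cell differentiation, had 15 and 0 UMIs in the Relapsed libraries and 2 and 3 UMIs in the Cured libraries, all of its UMIs in these data. Of the 20 genes 17 had a UMI.

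Gpx1 and Bpgm stood far above the rest of their list of 20, of which 16 had a UMI. Gpx1, a glutathione peroxidase that removes hydrogen peroxide, had a level of 268 and 432 UMIs per 10000 in the Relapsed libraries, against 307 and 236 in the Cured libraries. Bpgm makes 2,3-bisphosphoglycerate, the red cell metabolite that loosens oxygen from haemoglobin. Bpgm had 146 and 234 in the Relapsed libraries, against 242 and 231 in the Cured libraries, and 62.9% of all Bpgm UMIs lay in red cell barcodes. Cat, catalase, had 13.4 and 42.9 in the Relapsed libraries, against 20.2 and 17.9 in the Cured libraries. Of the glycolytic enzymes on the list, summed over all 4 libraries, Gapdh had 7 UMIs, Eno1 had 5, Aldoa had 4, Pkm had 3 and Ldha had 1, and Pgk1, Pklr and Tpi1 had none.

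RNA of earlier red cell stages came to few UMIs, though its sums were not below those of the other barcodes. Of 12 erythroid transcription factors 7 had no UMI, namely Gata1, Gata2, Klf1, Nfe2, Zfpm1, Gfi1b and Myb, and the other 5 had 25 UMIs together. The 15 genes of dividing precursors summed to 15.7 and 6.60 in the Relapsed libraries and 15.1 and 10.2 in the Cured libraries. For these genes the other barcodes had 5.34 to 6.32. Of the 15 genes 7 had no UMI in red cell barcodes, among them Kit and Cdk1. The most abundant was Ube2c, a ubiquitin-conjugating enzyme of mitosis, and 43.5% of its UMIs in all barcodes lay here. Ube2c had 48 and 2 UMIs in the Relapsed libraries and 4 and 3 UMIs in the Cured libraries. Mki67 and Top2a had 1 UMI each. The embryonic globins Hbb-bh1, Hbb-bh2 and Hbb-y had no UMI and Hba-x had 1. The theta globins, whose function is unclear, had a few: Hbq1a had 22 and 1 UMIs in the Relapsed libraries and 4 and 4 UMIs in the Cured libraries, and Hbq1b had 21 and 0 UMIs and 3 and 3 UMIs in the same order.

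**Figure D5:**
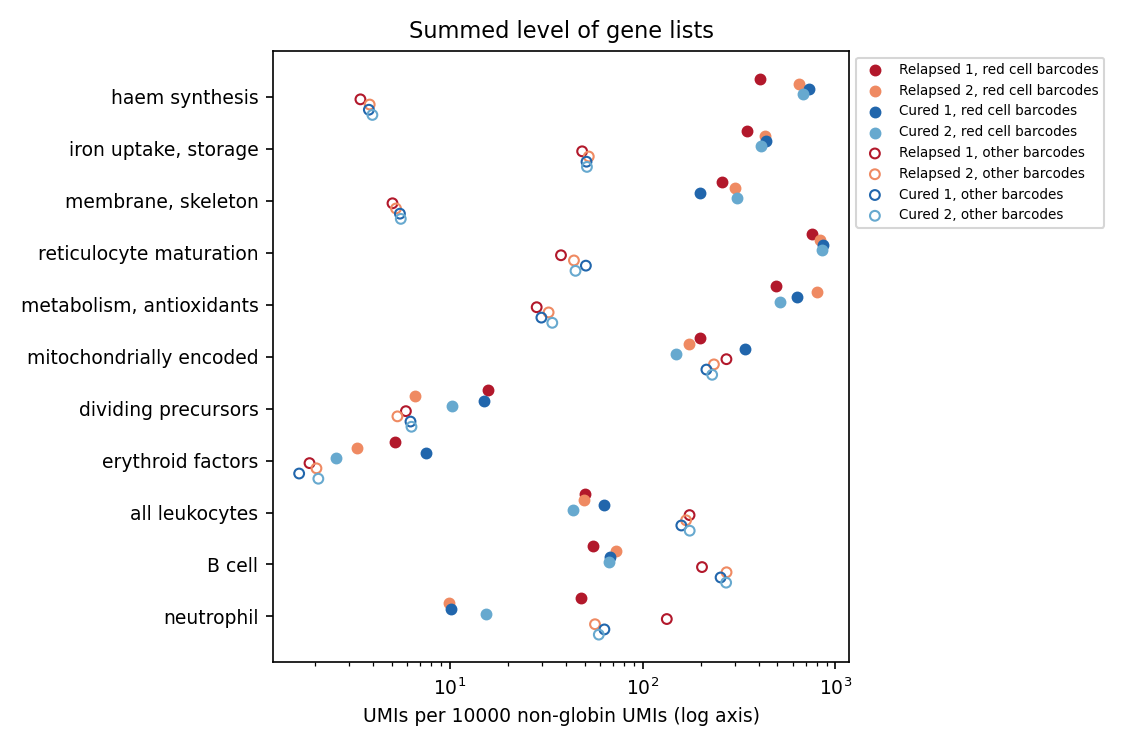
Summed level of each gene list (UMIs per 10000 non-globin UMIs, log axis), filled points for red cell barcodes and open points for all other barcodes, 1 colour per library. The 5 red cell lists lie between 199 and 862 in red cell barcodes and at or below 52.5 in the others, and the leukocyte lists lie the other way round.

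The summed markers of each leukocyte type were lower in red cell barcodes than in the rest, and most were not at 0. The 8 B cell markers all had UMIs and summed to 55.3 and 72.6 UMIs per 10000 in the Relapsed libraries, against 68.0 and 66.6 in the Cured libraries, led by Cd74, the invariant chain of MHC class II, with 42.1 and 46.2 against 52.9 and 56.4. The 8 neutrophil markers summed to 48.0 and 9.89 in the Relapsed libraries, against 10.1 and 15.4 in the Cured libraries, with G0s2 at 0. S100a8, a neutrophil calcium-binding protein, had 96 and 1 UMIs in the Relapsed libraries and 3 and 3 UMIs in the Cured libraries. The 9 T cell markers, with 21 UMIs in all, summed to 4.91 and 3.30 in the Relapsed libraries and 2.52 and 0 in the Cured libraries. In the other barcodes they summed to 5.86 and 5.80 in the Relapsed libraries and 8.95 and 7.34 in the Cured libraries. Relapsed library 1 was thus only a little lower in its red cell barcodes. Cd4, Lck, Trac and Trbc2 were at 0. The 7 NK cell markers, with 13 UMIs in all, summed to 2.32 and 3.30 in the Relapsed libraries and 7.56 and 0 in the Cured libraries. The other barcodes had 15.2 to 16.4 for these, and Ncr1, Klrb1c and Prf1 were at 0 in red cell barcodes. The 8 monocyte markers had 19 UMIs, all in Relapsed library 1, with Csf1r and Ccr2 among 4 at 0. The 8 genes of all leukocytes, among them Tmsb4x, summed to 50.1 and 49.5 in the Relapsed libraries and 63.0 and 43.6 in the Cured libraries. None of 10 platelet markers and none of 6 leukaemia or added sequences, which include GFP_1 and BCR_ABL_1, had a UMI. There were 49636 non-globin UMIs, most of them from Relapsed library 1, which allows a share of up to 0.00604% each. In the other barcodes the platelet markers summed to only 0.0397 to 0.0693 UMIs per 10000. The leukaemia and added sequences summed to 0.0111 to 0.0427 there. Both sums lie below that bound, so the 0 counts cannot show a lower level in red cell barcodes. At least 2 markers of 1 leukocyte type were found in 26 of 281 (9.25%, exact binomial 95% interval 6.13 to 13.3) and 3 of 23 (13.0%, 2.78 to 33.6) red cell barcodes of the Relapsed libraries, against 3 of 29 (10.3%, 2.19 to 27.4) and 2 of 25 (8%, 0.984 to 26.0) of the Cured libraries. Whether these held a second cell or free RNA was not tested.

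Between Relapsed and Cured red cell barcodes no gene of the remaining RNA passed the test. UMIs were summed per library, and 60 genes passed the filter on low counts. edgeR's quasi-likelihood test with Benjamini-Hochberg adjustment called 0 of 60 genes (0%), and DESeq2 likewise 0. Before adjustment 2 genes had p under 0.05, namely Pabpc1 and Slc25a39. Pabpc1, which binds the poly(A) tails of messenger RNA, had a level of 73.1 and 49.5 UMIs per 10000 in the Relapsed libraries, against 103 and 133 in the Cured libraries. Its log2 fold change was -0.79 (SE 0.29, edgeR adjusted p = 0.522). Slc25a39 had a log2 fold change of -0.69 (SE 0.32, edgeR adjusted p = 0.706). Alas2 had -0.39 (SE 0.37, edgeR adjusted p = 0.706). All 4 tested haem synthesis genes had negative log2 fold changes with a median of -0.38, where the median of all 60 genes was 0.12; none passed. Of the other lists, 2 of 3 iron genes, 2 of 2 membrane genes, 5 of 8 maturation genes and 1 of 2 metabolic genes had positive values. None of these passed. Among all 60 tested genes 37 had positive and 23 negative values, so these small counts do not set the lists apart. The filter kept genes with enough UMIs in these libraries only, and most of the 386 genes with at least 10 UMIs were not tested.

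The red cell barcodes carried nearly all globin RNA of the libraries. They held 94.2% and 90.9% of the globin UMIs in the Relapsed libraries, against 96.0% and 95.3% in the Cured libraries. Globin made up 5.02% and 0.339% of all UMIs in the Relapsed libraries, against 0.411% and 0.330% in the Cured libraries. In sums over all barcodes, where fewer red cells and less RNA per cell cannot be told apart, Hbb-bs had 325 and 22.4 UMIs per 10000 UMIs in the Relapsed libraries, against 26.3 and 21.3 in the Cured libraries. Its log2 fold change was 2.87 (SE 1.75, edgeR adjusted p = 0.695). The other globins had log2 fold changes of 2.65 (Hba-a1), 2.76 (Hba-a2) and 3.11 (Hbb-bt), and Alas2 had 2.17, none past the test. Among all 11498 genes in the fit edgeR called 0 (0%) and DESeq2 1, while 852 had p under 0.05 before adjustment. Relapsed library 1 decided these values: without it the log2 fold change of Hbb-bs was -0.09, and without Relapsed library 2 it was 3.78 (edgeR adjusted p = 0.0007).

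Globin RNA outside red cell barcodes was also highest in Relapsed library 1. In barcodes with under 5% globin there were 0.161 and 0.0218 globin UMIs per barcode in the Relapsed libraries, against 0.0235 and 0.0157 in the Cured libraries. At least 1 globin UMI was found in 12.9% (exact binomial 95% interval 11.7 to 14.04) and 2.02% (1.62 to 2.48) of these barcodes in the Relapsed libraries, against 1.70% (1.31 to 2.16) and 1.43% (1.10 to 1.84) in the Cured libraries. Relapsed library 1 was thus high in both red cell barcodes and stray globin UMIs, while the other libraries lay close together. The alpha share of the stray UMIs in Relapsed library 1 was 30.5% (26.6 to 34.6, 535 UMIs), above the 22.8% of its red cell barcodes. It was also above in Relapsed library 2, at 28.4% (19.6 to 38.6, 95 UMIs) against 21.8%. In Cured library 1 it was 32.2% (22.8 to 42.9, 90 UMIs) against 25.8%. Cured library 2 had 41.8% (29.8 to 54.5, 67 UMIs) against 24.97%. Nearly all globin UMIs outside red cell barcodes lay in the few barcodes with 5 to 50% globin: 20398 of 20933 and 2951 of 3046 in the Relapsed libraries, in 20 and 2 barcodes, against 1426 of 1516 and 1621 of 1688 in the Cured libraries, in 1 barcode each. Over all barcodes under 50% globin, Hbb-bs had a log2 fold change of 3.37 (SE 1.38, edgeR adjusted p = 0.653) and Alas2 one of 2.37 (SE 0.80, edgeR adjusted p = 0.653). Among the 11492 genes of that fit edgeR called 0 (0%) and DESeq2 1, while 854 had p under 0.05 before adjustment. Without Relapsed library 1 the log2 fold change of Hbb-bs was 0.98, and without Relapsed library 2 it was 4.22 (edgeR adjusted p = 7.92e-07). Hbb-bt had 3.60 (SE 1.34, edgeR adjusted p = 0.653), and without Relapsed library 1 it passed at 1.40 (edgeR adjusted p = 0.0471), a comparison that sets the 2 barcodes of Relapsed library 2 with 5 to 50% globin against 1 in each Cured library. In barcodes under 5% globin alone the log2 fold changes were smaller, at 2.83 for Hbb-bs and 1.53 for Hbb-bt (edgeR adjusted p = 0.652 for both) and 1.58 for Hba-a2 (edgeR adjusted p = 0.672).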

How the data were processed

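The deposited values are raw UMI counts per gene and barcode, made by the authors with Cell Ranger 3.1.0 against mm10, per the submitters' processing notes and the headers of the deposited files. The annotation release and the rule for reads shared by near-identical genes are not given in the sources used here. All barcodes were used (no gene, mitochondrial or doublet filter), since a minimum of 200 genes would remove most red cell barcodes. Doublets were not called; barcodes with at least 2 markers of 1 leukocyte type were counted and left out as an alternative. The members and gene lists were chosen with earlier results of these data known. UMIs were summed per library and tested with edgeR 4.0.16 (quasi-likelihood, TMM, filterByExpr, Benjamini-Hochberg threshold 0.05) in R 4.3.3. The script was run on simulated counts with a fixed spread, which does not measure the power of the tests on the real data. Single values were compared by exact permutation tests over libraries. Replicate numbers were not used as a block, because the labels do not say that they pair libraries. p-values measure the spread between pools. Promoters come from RefSeq (GRCm38.p6), gene positions and transcripts from GENCODE M21 (GRCm38, the assembly named mm10). All 5 marker genes matched. Named genes were the 5 markers, the 3 most abundant of each list, the 15 most abundant and the 15 most enriched genes. Other genes are named to account for their lists. Some genes that the rule takes are not reported here. Ahsp and Hbb-bh0 were not analysed here. Alternatives were other thresholds, DESeq2 1.42.0, no TMM factor, no filter, the replicate block and each library left out.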

Additional observations from a re-analysis of the deposited data

How the results depend on the processing

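Depth limits the remaining RNA: 3 libraries have 23 to 29 red cell barcodes and at most 3969 non-globin UMIs each, and 60 genes passed the filter. With 2 libraries a group no exact test can pass 0.05, and a library left out leaves a lone sample that is assumed to vary like the others.

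The globin make-up kept its direction at thresholds of 25, 75 and 90% and with each library left out: the Relapsed minus Cured difference ran from -3.60 to -2.55 percentage points for alpha, from 1.31 to 2.13 for Hba-a2 of alpha and, with a library left out, from 1.47 to 2.08 for Hbb-bt of beta, which stood at 1.43 at the 90% threshold. With a library left out the difference in the share of red cell barcodes ran from -0.143 to 7.07 percentage points, in median non-globin UMIs from -21.0 to 34.0 and in median non-globin genes from -8 to 14. At a 90% threshold the last pair became -8.75 UMIs and -0.25 genes.

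In library sums, against 0 calls, DESeq2 called 1 gene (Gm43305), no filter 132 and a library left out 2 to 2249, the highest without Relapsed library 2. In the other barcodes DESeq2 called 1 (Gm43305), no filter 150 and a library left out 4 to 2405. In red cell barcodes the 90% threshold called 1 gene (mt-Co1) and a library left out 0 to 3 (Malat1 without Cured library 1; Malat1, Isg15 and Lars2 without Cured library 2). Without filter Alas2 reversed there, to 0.00296 on the log2 scale. Without Relapsed library 1 the log2 fold changes in library sums were -0.0900 for Hbb-bs, -0.39 for Hba-a1, -0.33 for Hba-a2 and -0.43 for Alas2, and without Relapsed library 2 they reached 3.78, 3.56, 3.68 and 3.07. Gm42418 in red cell barcodes ran from -0.31 without Relapsed library 1, with -0.0841 without Cured library 1, to 1.27 without Cured library 2. Alas2 in the other barcodes passed the threshold with no filter (edgeR adjusted p = 0.0003). Leaving out Gm42418, AY036118 and Lars2, chosen after seeing the data, changed no call. The cause was not tested.

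With the replicate number as a block 79 genes were called in library sums, 76 in the other barcodes and 0 in red cell barcodes. The deviations of same-numbered libraries correlated at -0.028, -0.032 and 0.064 in these fits, so that the numbers were not taken as pairing the libraries. Under the block Alas2 in the other barcodes passed (log2 fold change 2.13, edgeR adjusted p = 0.0047).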

Other observations

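Other transcripts were also abundant or enriched in red cell barcodes, and some of them, such as Rec114, are better known from other settings. The genes with the largest ratio of their level in red cell barcodes to that in the other barcodes included Apol11b, an apolipoprotein L gene, with 74 and 16 UMIs in the Relapsed libraries and 13 and 26 UMIs in the Cured libraries, and 96.3% of all Apol11b UMIs lay in red cell barcodes. Rec114, known for meiotic recombination, had 123 and 11 UMIs in the Relapsed libraries and 10 and 9 UMIs in the Cured libraries, and 90.5% of its UMIs lay there. Both were seen in every library. Aldh1a1, which makes retinoic acid, had 21 and 1 UMIs in the Relapsed libraries and none in the Cured libraries. Tspo2 had 26 and 1 UMIs in the Relapsed libraries and 0 and 1 UMIs in the Cured libraries, Paqr9 had 12 and 1 against 2 and 0, and Cyp4b1 had 9 and 1 against 1 and 1. Sec61g, a subunit of the channel that moves proteins into the endoplasmic reticulum, had a level of 200.1 and 218 UMIs per 10000 in the Relapsed libraries, against 121 and 218 in the Cured libraries. Oaz1, which limits polyamine synthesis, had 180.2 and 208 in the Relapsed libraries, against 207 and 174 in the Cured libraries.

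Some genes known to respond to interferon were also abundant in red cell barcodes; they were picked after their values were seen. Isg20, a nuclease, had a level of 57.6 and 79.2 UMIs per 10000 in the Relapsed libraries, against 88.2 and 84.6 in the Cured libraries. Rsad2 had 45.4 and 26.4 in the Relapsed libraries, against 30.2 and 35.9 in the Cured libraries. Isg15 had 31.5 and 36.3 in the Relapsed libraries, against 5.04 and 33.3 in the Cured libraries. Of all UMIs of Isg20, Rsad2 and Isg15, 32.7%, 51.5% and 8.52% lay in red cell barcodes. Other genes of that kind were scarce: of 27 genes in a list drawn up afterwards 13 had a UMI and 4 had at least 10 UMIs, these 3 and Ube2l6. Ifit1 had 1 UMI.

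Malat1, a long RNA that stays in the nucleus and was picked after its values were seen, was uneven between libraries in red cell barcodes. It had 158 and 6 UMIs in the Relapsed libraries, against 57 and 0 UMIs in the Cured libraries, or a level of 40.8 and 19.8 UMIs per 10000 against 144 and 0. In the other barcodes its level was 98.6 and 70.7 in the Relapsed libraries, against 64.1 and 71.4 in the Cured libraries. It was higher in Relapsed than in Cured libraries without Cured library 1, where the remaining Cured library had no UMI, and lower without Cured library 2 (log2 fold change -1.98, edgeR adjusted p = 0.0264).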
